A study of Mus musculus with 27 samples.

Results

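To describe how the normal mouse intestine changes between late fetal and adult life, gene expression in the ileum of 8-week-old adults labelled WT was compared with that in the intestine of E17.5 embryos labelled WT. Each group held 3 RNA-seq libraries of the 27 in the series. Of the 27316 genes in the mouse tissue table, 17381 had a mean of at least 10 in either group and were kept. The unit of this table is a read count corrected for sequencing depth and, as the values themselves showed, divided by the length of the gene's transcripts in kb (called counts per kb here), so that levels can be set side by side between genes. Both groups were of the C57Bl6/129sv strain. By the study's methods, all 6 animals carried floxed alleles (Taf4 lox/lox) without Cre, the embryos were littermates of Taf4 lox/lox::VilCre embryos, and the adults had been given Tamoxifen some days before. The labels instead give oil as the injection in both WT groups, so the treatment of these controls is uncertain. The adult samples are ileum, the last stretch of the small intestine, whereas the embryo samples are called intestine in the labels and small intestine in the methods. Stage and region therefore cannot be told apart. RNA was made into libraries with a stranded kit after poly(A) selection by the labels, and by linear amplification of cDNA by the methods. Groups labelled KO exist at both stages and are only set beside the WT groups. They are Taf4 lox/lox::VilCre embryos, and Taf4 lox/lox::VilCreERT2 adults given Tamoxifen, in which the villin promoter drives Cre in gut epithelium. Control organoids, grown from ileal epithelium, are used only to see which genes are present there. By the methods, these organoids were Taf4 lox/lox without Cre and had been treated with hydroxytamoxifen.

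In rodents the gut is prepared before birth for a diet of milk. Fetal and suckling enterocytes, the absorptive cells of the villi, carry lactase, take up whole proteins by endocytosis, absorb much fat and make arginine, which milk supplies poorly. Around weaning, sucrase-isomaltase, trehalase and arginase appear instead. Paneth cells, which secrete antimicrobial peptides at the crypt base, form only after birth, and lymphocytes and plasma cells enter the mucosa once microbes and food arrive. The ileum is set apart from more proximal gut by its uptake of bile acids.

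The deposited values are means of 3 libraries without an error. Because a mean of 3 whole read counts, each divided by a known factor, can be reached by few combinations, the reads of each library were solved from it. A single combination was found for 97.6% of the genes searched in adult WT and 97.7% in embryo WT. The libraries are called a, b and c within each group, and these letters are not the replicate numbers of the labels. The solved reads came to 14316284 to 15381467 per library in adult WT and 14983253 to 17225018 in embryo WT. The median SD of log2 values between libraries of a group was 0.10 in adult WT and 0.07 in embryo WT. All tests are limma's on these reads for the 16800 genes solved in both groups, with p-values adjusted over all of them by Benjamini and Hochberg, and fold changes are log2, adult over embryo, with their SE (n = 3 libraries each). The methods give 3 separate animals per group, and the p-values measure the spread between them. Genes are said to rise or fall only when the adjusted p was under 0.05 and the means differed at least 2-fold. A gene not solved in a group is given by its means alone, which the authors deposited.

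Some libraries stood apart from the others of their group. Embryo library a alone held Y-linked reads, with 1192 counts per kb of Eif2s3y against 0 in embryo b and c, and it held more RNA of the exocrine pancreas. Ctrb1, a chymotrypsinogen, had 609, 24.3 and 44.4 counts per kb in embryos a, b and c. Embryo library b held more RNA of the fetal liver and of red cells, where Ahsg, a plasma protein, had 3.05, 675 and 2.11 counts per kb and Slc4a1, the red cell anion exchanger, 146, 808 and 131. Over whole lists the excess was smaller. The solved liver plasma protein genes summed to 7477, 13846 and 9028 counts per kb in embryos a, b and c, and the red cell genes to 14813, 18079 and 14794. In adult WT, library a was low in interferon-induced genes, with Ifi44 at 50.01, 444 and 412 counts per kb in a, b and c. Adipoq, a marker of fat cells, had 155, 86.6 and 235 counts per kb in the adult libraries and 0 in all embryo libraries. In whole tissue, fewer cells of a type and less RNA per cell cannot be told apart.

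**Figure D1:**
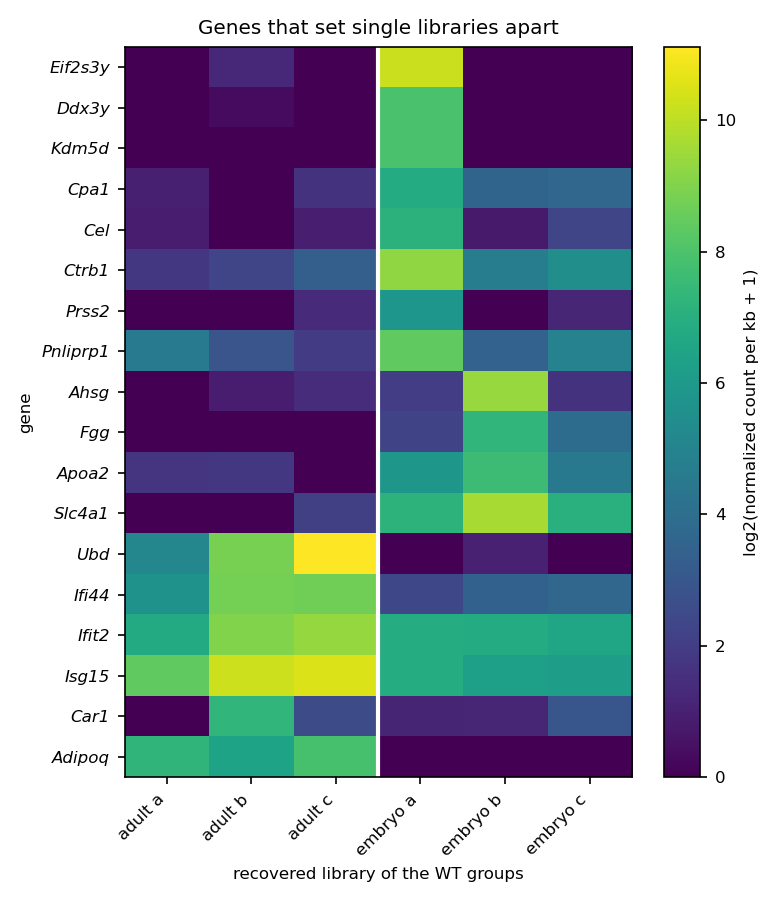
Recovered levels of genes that set single libraries apart, as colour on a log2(counts per kb + 1) scale, with the adult WT libraries on the left and the embryo WT libraries on the right. Eif2s3y and the pancreas genes Cpa1, Cel and Ctrb1 were highest in embryo a, Ahsg and Fgg in embryo b, and Ubd and Ifi44 were lowest among adults in adult a.

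The adult ileum and the fetal intestine differed in many genes, with defensins, antibody segments, lymphocyte genes and digestive enzymes among those high in adult WT and growth, matrix, lipid absorption and endocytosis genes among those low. In adult WT, 3173 genes (18.3% of those kept) had a mean at least 2-fold higher than in embryo WT and 2635 (15.2%) a mean at least 2-fold lower, on the log2(value + 1) scale used for all ratios of means. The changes were often large: 1651 genes were at least 4-fold higher and 1035 at least 4-fold lower, 612 and 241 passed 16-fold, and 184 and 20 passed 256-fold. Tested between libraries, 2667 of 16800 genes (15.9%) rose and 2259 (13.4%) fell. The 10 highest genes took 8.38% of the summed means in adult WT and 7.13% in embryo WT, and the 100 highest took 27.4% in adult WT and 21.9% in embryo WT. The balance between higher and lower genes depended on the scaling: with the 2 groups scaled to equal totals, log2 ratios dropped by up to 0.34, and by less for genes near 0 in a group, and the counts became 2521 higher and 3670 lower, so that the share of higher genes among those past 2-fold was 40.7% instead of 54.6%. The median log2 ratio was 0.02 as deposited. Single ratios closer to the 2-fold line than that shift can thus change sides, and each gene list is read against the shares over all genes.

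**Figure D2:**
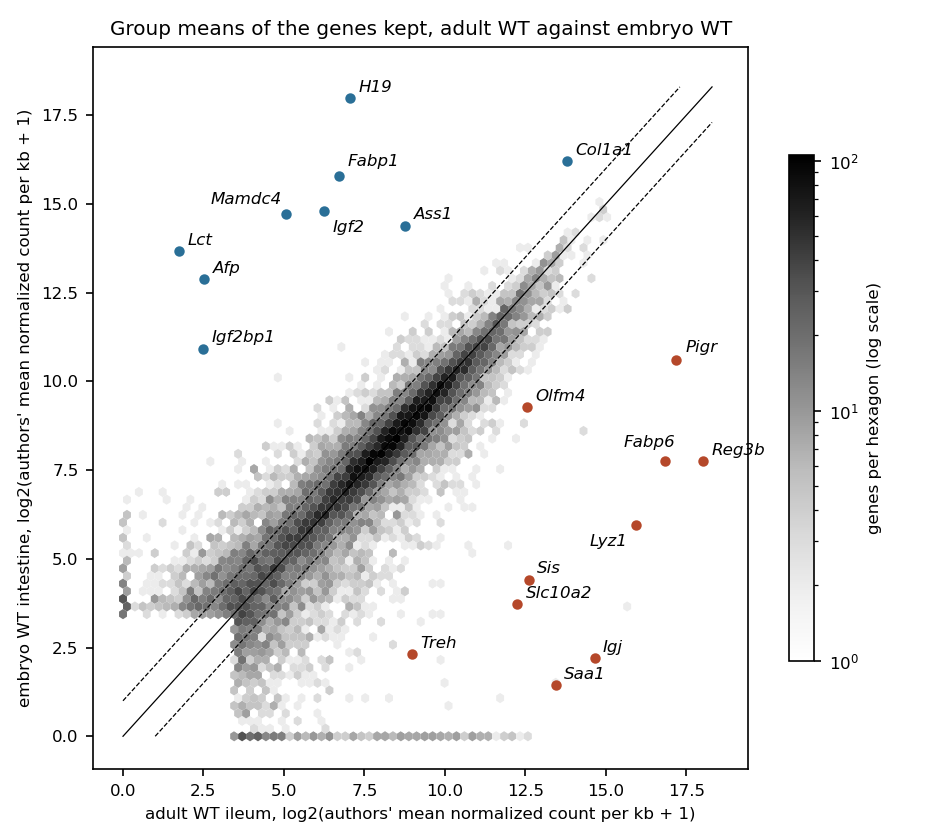
Mean level of each gene kept, adult WT on the horizontal and embryo WT on the vertical axis, both as log2(counts per kb + 1), with shading for the number of genes and dashed lines at 2-fold. Lct, H19 and Afp lie far above the diagonal, and Reg3b, Fabp6 and Lyz1 far below it.

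Enzymes that digest sugars differed in both directions, lactase being the fetal one and sucrase-isomaltase, maltase and trehalase those of the adult. Lactase, encoded by Lct, had the lowest ratio of all genes kept: its mean was 2.37 counts per kb in adult WT and 12983 in embryo WT (log2 ratio -11.91). The adult libraries held 3.61, 1.74 and 1.76 counts per kb, and the embryo libraries could not be solved. Sis, the sucrase-isomaltase of the adult brush border, stood at means of 6267 counts per kb in adult WT and 20.3 in embryo WT, where the libraries held 24.6, 18.1 and 18.3 (log2 ratio 8.20). Treh, the trehalase, rose: it had 617, 398 and 485 counts per kb in the adult libraries and 0.929, 4.04 and 6.97 in the embryo libraries (log2 fold change 7.27 ± 0.76, adjusted p = 6.3e-05). No adult library of Treh came near an embryo library. Mgam, the maltase-glucoamylase, had means of 6846 in adult WT and 1529 in embryo WT. Sugar transport moved in both directions. The brush border transporters for glucose (Slc5a1, log2 fold change 1.62, adjusted p = 3.9e-06) and fructose (Slc2a5, 1.87, adjusted p = 0.0027) and the fructokinase Khk (1.99, adjusted p = 1.2e-06) rose. Slc2a2, the glucose transporter of the basolateral side, fell, with 36.5, 5.74 and 39.9 counts per kb in the adult libraries and 889, 796 and 905 in the embryo libraries (log2 fold change -5.36 ± 0.49, adjusted p = 3.0e-05). The gluconeogenic enzymes Fbp1 (log2 fold change -2.45, adjusted p = 1.8e-04) and Pck1 (-3.11, adjusted p = 7.5e-07) fell too. Of 17 genes for sugar digestion and handling, 7 were past 2-fold higher and 5 lower, with a median log2 ratio of 0.62 against 0.02 over all genes.

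Beside the sugar hydrolases, the genes with the largest exchanges in absorption were those for bile acid uptake and for fatty acid binding. The 250 bases before the annotated start of 6 of these genes are given as examples of promoters of genes with large ratios. They come from RefSeq (GRCm38.p6, which is not the build of the study's alignment). Capitals mark matches on either strand to letters of factors known in the gut. The letters searched were TATAAA for the TATA box, CCAAT for the box of that name, AGATAA for factors of the GATA family, TTTATNG for CDX factors, CAAAGTCCA for the nuclear receptor HNF4, TTCCCGC for E2F factors and TGACTCA for AP-1. The TATA and CDX letters can overlap, and in Sis TATA letters on both strands share bases. In mm9, the build of the study, the genes lie at chr1:130181333-130224895 on the minus strand (Lct), chr3:72692479-72771785 on the minus strand (Sis), chr9:44481316-44494388 on the plus strand (Treh), chr11:43409551-43415042 on the minus strand (Fabp6), chr8:5085623-5105232 on the minus strand (Slc10a2) and chr6:71149821-71155017 on the plus strand (Fabp1).
Lct (chr1:128328319-128328568, minus strand): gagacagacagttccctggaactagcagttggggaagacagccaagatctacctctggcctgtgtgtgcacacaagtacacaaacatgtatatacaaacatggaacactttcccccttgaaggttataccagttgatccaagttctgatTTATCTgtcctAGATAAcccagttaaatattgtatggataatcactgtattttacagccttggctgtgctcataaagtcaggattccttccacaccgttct
Sis (chr3:72967864-72968113, minus strand): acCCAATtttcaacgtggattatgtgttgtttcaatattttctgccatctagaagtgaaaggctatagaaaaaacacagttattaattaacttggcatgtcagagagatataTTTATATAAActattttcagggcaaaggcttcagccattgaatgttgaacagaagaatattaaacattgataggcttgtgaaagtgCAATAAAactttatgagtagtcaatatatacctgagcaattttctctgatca
Treh (chr9:44672983-44673232, plus strand): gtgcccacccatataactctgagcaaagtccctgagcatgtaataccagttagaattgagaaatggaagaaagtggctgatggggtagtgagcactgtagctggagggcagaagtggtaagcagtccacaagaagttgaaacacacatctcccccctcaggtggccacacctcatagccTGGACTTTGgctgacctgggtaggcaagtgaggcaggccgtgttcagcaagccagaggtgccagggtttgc
Fabp6 (chr11:43601563-43601812, minus strand): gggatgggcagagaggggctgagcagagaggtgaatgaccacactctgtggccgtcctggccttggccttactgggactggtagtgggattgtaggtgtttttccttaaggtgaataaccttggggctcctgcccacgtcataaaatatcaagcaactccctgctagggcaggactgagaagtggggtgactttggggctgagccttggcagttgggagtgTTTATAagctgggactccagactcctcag
Slc10a2 (chr8:5105288-5105537, minus strand): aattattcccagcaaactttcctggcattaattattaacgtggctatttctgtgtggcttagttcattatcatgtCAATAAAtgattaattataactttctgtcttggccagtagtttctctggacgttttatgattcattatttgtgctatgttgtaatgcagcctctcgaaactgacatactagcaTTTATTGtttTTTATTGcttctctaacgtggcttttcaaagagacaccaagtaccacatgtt
Fabp1 (chr6:71199629-71199878, plus strand): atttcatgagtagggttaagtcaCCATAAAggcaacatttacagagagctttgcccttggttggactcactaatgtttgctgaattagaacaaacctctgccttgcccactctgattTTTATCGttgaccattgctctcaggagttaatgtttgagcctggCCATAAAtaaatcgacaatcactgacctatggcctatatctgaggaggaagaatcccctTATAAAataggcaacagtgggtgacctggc
In these windows the GATA letters occurred at 90 and 101 bases before the start of Lct, CDX letters at 52 bases before that of Sis and at 52, 62 and 175 bases before that of Slc10a2, and the HNF4 letters at 71 bases before that of Treh. The capitals of Fabp6 are TATA letters on the opposite strand, 29 bases before the start, and Fabp1 held TATA letters at 30 bases and CDX letters at 89, 133 and 227 bases. Over all genes kept with a promoter in the reference, TATA letters stood in 11.2% of 1702 promoters of higher genes, 7.37% of 1560 of lower genes and 5.82% of 7591 of genes within 2-fold, against 13.0% of all 27025 promoters in the reference. The AP-1 letters stood in 6.52% of promoters of higher genes, 3.65% of lower genes and 2.61% of genes within 2-fold, against 4.43% of all promoters. For the HNF4 letters these shares were 0.999% (higher), 0.833% (lower) and 0.237% (within 2-fold), against 0.381% of all. For the CDX letters they were 9.93% (higher), 6.73% (lower) and 5.88% (within 2-fold), against 10.2% of all, and for the GATA letters 8.64%, 6.35% and 5.85% in that order, against 10.3%. The E2F letters ran the other way, with 3.64% (higher), 5.51% (lower) and 7.57% (within 2-fold), against 3.84% of all. CCAAT stood in 34.0% (higher), 34.2% (lower) and 36.6% (within 2-fold), against 34.5% of all. Such matches are letters in a window, not sites in use.

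Bile acid uptake, the trait of the ileum, was high in adult WT. Slc10a2, the sodium-dependent bile acid transporter of the ileal brush border, rose: the adult libraries held 5647, 3744 and 5169 counts per kb and the embryo libraries 16.00, 8.40 and 12.1 (log2 fold change 8.62 ± 0.55, adjusted p = 3.8e-06). Fabp6, the ileal bile acid binding protein, had a mean of 116490.5 counts per kb in adult WT, among the 10 highest of the tissue, and 214 in embryo WT, where the libraries held 99.5, 318 and 223. Both subunits of the basolateral exporter rose, Ostb with means of 4289.6 in adult WT and 368 in embryo WT (log2 fold change 3.57 ± 0.13, adjusted p = 2.6e-07) and Osta with 7999 in adult WT and 2041 in embryo WT (log2 fold change 1.97 ± 0.09, adjusted p = 8.1e-07). Abcc3, another basolateral exporter, also rose (log2 fold change 4.66 ± 0.15, adjusted p = 1.6e-07). Other genes of bile acid handling fell. Abcb11, the bile salt export pump, had 0.228, 0 and 1.22 counts per kb in the adult libraries and 272, 357 and 289.8 in the embryo libraries (adjusted p = 3.3e-05). Nr0b2, the repressor SHP, had means of 12.0 in adult WT and 218 in embryo WT and fell as well (log2 fold change -4.19 ± 0.34, adjusted p = 1.5e-05). Fgf15, the ileal hormone induced by bile acids, had 144, 64.1 and 34.4 counts per kb in the adult libraries and 25.8, 22.2 and 36.7 in the embryo libraries, and did not pass (log2 fold change 1.33 ± 0.54, adjusted p = 0.059).

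These genes are also regional. Of 11 genes known for the distal small intestine 10 were past 2-fold higher and 0 lower, and of 13 known for the proximal part 2 were higher and 10 lower. Gata4, the factor that marks proximal intestine and is low in the adult ileum, fell, with 8.68, 13.5 and 14.3 counts per kb in the adult libraries and 1273, 1212 and 1225 in the embryo libraries (log2 fold change -6.67 ± 0.21, adjusted p = 1.4e-07). Onecut2 of the duodenum had means of 1.77 in adult WT and 159 in embryo WT, and Pdx1, a factor of the duodenum and pancreas, had 0.886 in adult WT and 17.51 in embryo WT (log2 fold change -4.69 ± 0.80, adjusted p = 0.0011). Gip, a hormone of the proximal gut, fell (log2 fold change -4.98 ± 0.57, adjusted p = 1.1e-04). Against this list stood Ada, the adenosine deaminase of the adult duodenum in mice, which rose (log2 fold change 5.30 ± 0.65, adjusted p = 1.6e-04), and Bcmo1, with means of 104 in adult WT and 8.28 in embryo WT. Of 6 genes known for the colon that were kept, 4 were past 2-fold higher and 1 lower, and of 5 tested 2 rose and 1 fell. The colonic factors Hoxb13 and Hoxa13 were below the minimum, with means of 0.357 and 0 in adult WT and 0 and 0 in embryo WT. Sox2, the stomach factor, had means of 1.01 in adult WT and 9.88 in embryo WT. Stage and region cannot be told apart for any gene of these lists.

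More genes of fat absorption were lower than higher in adult WT, and those for the transport of fatty acids and chylomicrons were among the lowest. Of 24 lipid absorption genes 11 were past 2-fold lower and 4 higher (median log2 ratio -0.69), and 8 fell and 4 rose of 18 tested. Fabp1, the liver-type fatty acid binding protein and another proximal gene, had 232, 49.2 and 28.1 counts per kb in the adult libraries and 55387, 55889 and 58161 in the embryo libraries (log2 fold change -9.62 ± 0.48, adjusted p = 1.1e-06). Adult library a had the highest level of the adults and still lay far below every embryo library. Apoa4, an apolipoprotein of chylomicrons, had means of 450.05 in adult WT, with libraries at 191, 536 and 624, and 45399 in embryo WT. The lipoprotein lipase cofactor Apoc2 fell (log2 fold change -5.61 ± 0.17, adjusted p = 1.4e-07), as did its antagonist Apoc3 (log2 fold change -4.18 ± 0.14, adjusted p = 1.6e-07) and the triglyceride-forming enzyme Dgat2 (log2 fold change -2.85 ± 0.13, adjusted p = 8.6e-07). Mttp, which loads lipid onto apolipoprotein B, had means of 3532 in adult WT and 12017 in embryo WT. The 4 lipid absorption genes that rose are known to handle sterols or lipoproteins. The sterol exporters Abcg5 (log2 fold change 2.48, adjusted p = 4.6e-07) and Abcg8 (2.26, adjusted p = 3.6e-07), the cholesterol importer Npc1l1 (1.31, adjusted p = 6.7e-06) and Apoe (1.52, adjusted p = 2.1e-05) rose. Cholesterol synthesis had a median log2 ratio of 0.06, which turns to -0.28 at equal totals, with 4 of 20 genes tested falling and 0 rising. Those that fell included Insig1, the sterol sensor (log2 fold change -2.72 ± 0.12, adjusted p = 7.3e-07).

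Fat breakdown followed in part. Acot1, an acyl-CoA thioesterase (log2 fold change -5.16 ± 0.13, adjusted p = 7.9e-08), and Acaa2, a thiolase of mitochondrial beta-oxidation (log2 fold change -2.63 ± 0.08, adjusted p = 1.5e-07), fell. Most enzymes of beta-oxidation lay closer together: of 23 genes tested 7 fell and 2 rose, and the median log2 ratio of the list was -0.21. Against it, Angptl4, an inhibitor of lipoprotein lipase, rose (log2 fold change 2.19 ± 0.22, adjusted p = 5.6e-05).

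Genes of the suckling-type enterocyte were low in adult WT and those of the adult type high. Of 12 suckling-type genes 9 were past 2-fold lower and 0 higher, and 7 fell of 9 tested. Dab2, the adaptor of the endocytic machinery, had 436, 460.5 and 381 counts per kb in the adult libraries and 2981, 3678 and 3762 in the embryo libraries (log2 fold change -3.02 ± 0.12, adjusted p = 3.4e-07). The endocytic receptors and partners Lrp2 (log2 fold change -2.46 ± 0.20, adjusted p = 1.4e-05) and Amn (log2 fold change -1.19 ± 0.09, adjusted p = 8.0e-06) fell as well, whereas Cubn, the receptor for vitamin B12 with intrinsic factor that works with Amn, had means of 11609 in adult WT and 8686 in embryo WT. Fcgrt, the neonatal Fc receptor that carries maternal antibody, had means of 1064 in adult WT, with libraries at 882, 1190.1 and 1119, and 12213 in embryo WT. Mamdc4, an endosomal protein of fetal enterocytes, had means of 32.2 in adult WT and 26734 in embryo WT, and its adult libraries held only 31.3, 36.3 and 29.0 counts per kb. Nox4, an NADPH oxidase, fell (log2 fold change -5.32 ± 0.32, adjusted p = 2.8e-06). The transcription factor Prdm1, known as Blimp1, had 138, 175 and 296 counts per kb in the adult libraries and 731, 711 and 741 in the embryo libraries (log2 fold change -1.92 ± 0.21, adjusted p = 9.1e-05). All 7 adult-type genes were past 2-fold higher, and the 5 that could be tested rose.

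**Figure D3:**
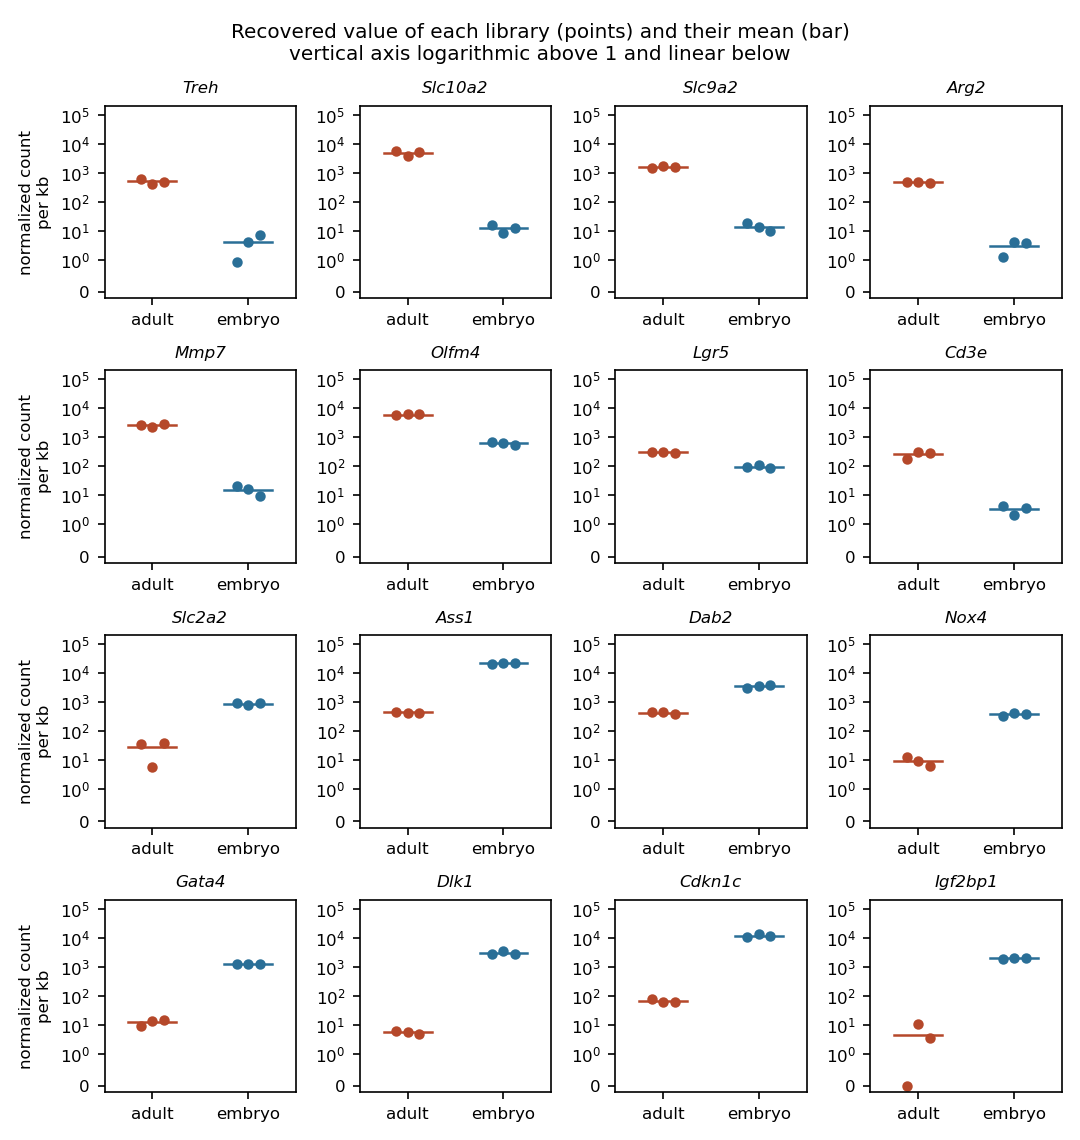
Recovered counts per kb in each adult WT library (left) and embryo WT library (right) for 16 genes, with a bar at the mean; the vertical axis is logarithmic above 1. In every panel the groups lie apart, Treh, Slc10a2, Slc9a2, Arg2, Mmp7, Olfm4, Lgr5 and Cd3e being higher in adult WT and the others lower.

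Of 16 arginine and urea cycle genes kept 5 were past 2-fold lower and 2 higher, and of 13 tested 2 fell and 2 rose. Ass1, which makes the precursor of arginine, fell: the adult libraries held 462, 422 and 429 counts per kb and the embryo libraries 19810.1, 22671 and 22084 (log2 fold change -5.61 ± 0.10, adjusted p = 3.3e-08). Asl, the next enzyme, fell (log2 fold change -2.09 ± 0.08, adjusted p = 2.4e-07). Upstream of them, Cps1 had means of 2965 in adult WT and 9662 in embryo WT, and Aldh18a1, the pyrroline carboxylate synthase, 4113 in adult WT and 29986 in embryo WT. Arg2, an arginase, which breaks arginine down, had 473, 487 and 443 counts per kb in the adult libraries and 1.26, 4.11 and 3.63 in the embryo libraries, and rose (log2 fold change 7.29 ± 0.40, adjusted p = 1.8e-06). Arg1, the other arginase, rose too, with 685, 123 and 176 in the adult libraries and 18.9, 23.2 and 13.4 in the embryo libraries (log2 fold change 3.76 ± 1.13, adjusted p = 0.019). The arginases were the 2 genes that rose, and 1 did when any 1 of the embryo libraries was left out.

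Most genes for enzymes and structure of the brush border were higher in adult WT. Of 22 such genes 14 were past 2-fold higher and 4 lower, and of the 13 that could be tested 6 rose and 4 fell. Anpep, aminopeptidase N, had means of 63213 counts per kb in adult WT and 7720.3 in embryo WT, where the libraries held 8277, 7879 and 7005. Clca4 (log2 fold change 4.28 ± 0.12, adjusted p = 1.0e-07) and the aminopeptidase Xpnpep2 (log2 fold change 4.36 ± 0.39, adjusted p = 2.4e-05) rose. Myo1a, the myosin that ties microvilli to their membrane, had means of 10775 in adult WT and 874 in embryo WT. Fewer members were lower. The neutral ceramidase Asah2 (log2 fold change -2.58 ± 0.13, adjusted p = 1.2e-06), the sphingomyelinase Enpp7 (log2 fold change -2.29 ± 0.22, adjusted p = 4.0e-05), the peptidase Ace (log2 fold change -1.90 ± 0.12, adjusted p = 3.9e-06) and the alkaline phosphatase Alpi (log2 fold change -1.34 ± 0.11, adjusted p = 1.6e-05) fell. Asah2 and Enpp7 digest sphingolipids, in which milk is rich.

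Genes for the transport of ions, metals and amino acids moved in both directions. Of 26 transporters of electrolytes, iron and calcium that were tested, 12 rose and 6 fell. Slc9a2, a sodium-proton exchanger, had 1415, 1738 and 1567 counts per kb in the adult libraries and 17.8, 13.2 and 10.1 in the embryo libraries (log2 fold change 6.85 ± 0.23, adjusted p = 1.8e-07). The carbonic anhydrase Car4 showed the largest rise of the list, with means of 4715 in adult WT and 5.75 in embryo WT (log2 fold change 9.66 ± 0.72, adjusted p = 9.3e-06). Vdr, the vitamin D receptor, rose, with 19284, 19311 and 16700.1 counts per kb in the adult libraries and 926, 866 and 1163 in the embryo libraries (log2 fold change 4.24 ± 0.11, adjusted p = 9.0e-08). Its known target S100g, a calcium-binding protein of the proximal gut, fell (log2 fold change -3.04 ± 0.32, adjusted p = 6.3e-05). Genes of iron uptake and export were lower in adult WT: the iron importer Slc11a2 (log2 fold change -1.99 ± 0.10, adjusted p = 1.2e-06), the ferric reductase Cybrd1 (log2 fold change -2.26 ± 0.20, adjusted p = 2.2e-05) and the exporter ferroportin, Slc40a1 (log2 fold change -1.89 ± 0.29, adjusted p = 6.0e-04), all fell. Aqp8, a water channel, fell, with 0 counts per kb in all adult libraries and 244, 416 and 304 in the embryo libraries (adjusted p = 3.1e-04). Amino acid and peptide transporters rose in 5 and fell in 3 of 14 cases tested, with the glutamate transporter Slc1a1 (log2 fold change 5.49 ± 0.10, adjusted p = 3.6e-08) and the peptide transporter Slc15a1 (log2 fold change 2.09 ± 0.11, adjusted p = 1.3e-06) among those that rose and the amino acid transporter Slc7a8 (log2 fold change -2.31 ± 0.22, adjusted p = 3.4e-05) among those that fell.

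Both lists of genes that handle foreign compounds held more rising than falling members, but enzyme families differed. Cytochromes P450 and their receptors rose in 7 and fell in 4 of 17 cases tested. With any 1 library left out, 5 to 8 rose and 4 fell. Cyp3a25 (log2 fold change 8.03 ± 1.23, adjusted p = 5.7e-04) and Cyp4f14 (log2 fold change 7.27 ± 0.29, adjusted p = 3.4e-07) led, and the receptor Nr1i3, known as CAR, fell (log2 fold change -3.57 ± 0.30, adjusted p = 1.7e-05). The carboxylesterases, which split esters of drugs and lipids, were mostly high in adult WT, with 10 of 11 past 2-fold higher and 0 lower. Among them Ces2c had means of 3785 in adult WT and 40.6 in embryo WT (log2 fold change 6.52 ± 0.25, adjusted p = 3.2e-07) and Ces1f 3901 in adult WT and 42.2 in embryo WT (log2 fold change 6.67 ± 0.36, adjusted p = 1.6e-06). Of 32 genes of conjugation and efflux tested, 16 rose and 6 fell. Abcb1a, the efflux pump P-glycoprotein, rose (log2 fold change 3.89 ± 0.19, adjusted p = 9.0e-07), and the 2 monoamine oxidases parted, Maoa rising (log2 fold change 4.55 ± 0.10, adjusted p = 6.3e-08) and Maob falling (log2 fold change -3.75 ± 0.14, adjusted p = 2.6e-07). Of 20 glutathione transferases tested 4 rose and 7 fell, and of 9 UDP-glucuronosyltransferases 0 rose (0 at an unadjusted p under 0.05) and 4 fell (limma). The glutathione transferase Gsta2 fell most of the conjugation and efflux list, with means of 1.49 in adult WT and 395 in embryo WT (log2 fold change -7.42 ± 0.96, adjusted p = 2.2e-04).

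More genes of vitamin A handling fell than rose: 8 of 20 tested fell and 3 rose. Rbp2, which binds retinol in enterocytes, was among the most abundant fetal messages, with 1995, 1955 and 2020.2 counts per kb in the adult libraries and 32365, 33612 and 33709 in the embryo libraries (log2 fold change -4.06 ± 0.05, adjusted p = 8.0e-09). Adh1, an alcohol dehydrogenase that oxidises retinol, fell (log2 fold change -3.85 ± 0.16, adjusted p = 4.5e-07), as did Lrat, which stores retinol as ester (log2 fold change -2.20 ± 0.11, adjusted p = 1.0e-06). Aldh1a1, an enzyme of retinoic acid formation, rose (log2 fold change 1.43 ± 0.09, adjusted p = 4.0e-06). Among the other genes with the largest differences in level, Ndrg1, a gene induced by hypoxia and differentiation, fell (log2 fold change -4.03 ± 0.08, adjusted p = 3.6e-08), and Gpx3, a secreted glutathione peroxidase, had means of 2354 in adult WT and 32169 in embryo WT.

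The secretory lineages showed some of the largest differences. Paneth cell genes were past 2-fold higher in 17 of 17 cases, with a median log2 ratio of 8.63, and 7 of 8 tested rose. Lyz1, the Paneth cell lysozyme, had means of 62559 counts per kb in adult WT and 60.5 in embryo WT, where the libraries held 67.6, 69.6 and 44.3. Mmp7, the protease that activates alpha-defensins in mice, had 2626, 2261 and 2862 counts per kb in the adult libraries and 21.0, 16.4 and 9.70 in the embryo libraries (log2 fold change 7.36 ± 0.36, adjusted p = 9.9e-07). All 19 alpha-defensin genes kept were past 2-fold higher, and their summed means were 321417 counts per kb in adult WT and 1141 in embryo WT. Defensin genes are near-identical copies, so that reads counted for one of them may belong to another. Pla2g2a, a phospholipase of Paneth cells that kills bacteria, had 1296, 1152 and 1416 counts per kb in the adult libraries and 0 in all embryo libraries (adjusted p = 5.3e-06).

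Genes for other proteins that guard the mucosa were likewise high in adult WT. Reg3b, a lectin that binds bacteria, had the largest difference in level of all genes kept, with means of 264119 counts per kb in adult WT and 214 in embryo WT. Its relative Reg3g had means of 66455 in adult WT and 24.7 in embryo WT. Pigr, which carries antibodies into the lumen, had means of 147062 in adult WT and 1541 in embryo WT, where the libraries held 1797, 1662 and 1163. The oxidase Duox2 rose (log2 fold change 9.98 ± 0.61, adjusted p = 3.1e-06) together with its partner Duoxa2 (log2 fold change 8.97 ± 1.157, adjusted p = 2.1e-04), as did Nos2, the inducible nitric oxide synthase (log2 fold change 8.23 ± 0.79, adjusted p = 3.9e-05), and Saa3, an acute-phase protein (log2 fold change 8.14 ± 0.42, adjusted p = 1.3e-06). Altogether 18 of 20 mucosal defence genes were past 2-fold higher, and 12 of 13 tested rose. Further genes with very high ratios were Clca6, a relative of chloride channel regulators, which rose (log2 fold change 12.16 ± 1.12, adjusted p = 3.1e-05), and Ocm, the calcium-binding oncomodulin, with 1761, 1835 and 1850.2 counts per kb in the adult libraries and 2.72, 0 and 0 in the embryo libraries.

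Goblet cell genes were past 2-fold higher in 15 of 18 cases. Muc2, the gel-forming mucin of the small intestine, had means of 22024 counts per kb in adult WT and 402 in embryo WT, and Zg16, a lectin of the mucus, 68099 in adult WT and 309 in embryo WT. Spink4 (log2 fold change 3.99 ± 0.25, adjusted p = 3.5e-06) and Klk1 (log2 fold change 4.74 ± 0.39, adjusted p = 1.6e-05) rose, and so did Atoh1, the factor that commits cells to the secretory lineages (log2 fold change 3.10 ± 0.25, adjusted p = 1.6e-05). Muc1 was the member that fell (log2 fold change -1.26 ± 0.27, adjusted p = 0.0036). Tuft cell genes rose in 9 and fell in 1 of 13 cases tested, led by Sh2d6 (log2 fold change 5.46 ± 1.36, adjusted p = 0.008) and Avil (log2 fold change 4.17 ± 0.66, adjusted p = 7.2e-04). The count was 6 without any 1 of the embryo libraries. Dclk1, the usual tuft cell marker, had 122, 65.5 and 43.1 counts per kb in the adult libraries and 40.1, 50.3 and 54.4 in the embryo libraries and did not pass (log2 fold change 0.57 ± 0.34, adjusted p = 0.18). Enteroendocrine genes were split, 4 rising and 5 falling of 22 tested. Nts, the neurotensin of the distal gut, rose (log2 fold change 1.90 ± 0.23, adjusted p = 1.5e-04). Ghrelin, Ghrl (log2 fold change -2.88 ± 0.39, adjusted p = 3.0e-04), cholecystokinin, Cck (log2 fold change -2.16 ± 0.33, adjusted p = 5.4e-04), and the progenitor factor Neurog3 (log2 fold change -1.99 ± 0.37, adjusted p = 0.0017) fell, while Chga, present in most endocrine cells, had 526, 238 and 424 in the adult libraries and 339, 324 and 203 in the embryo libraries and did not pass.

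**Figure D4:**
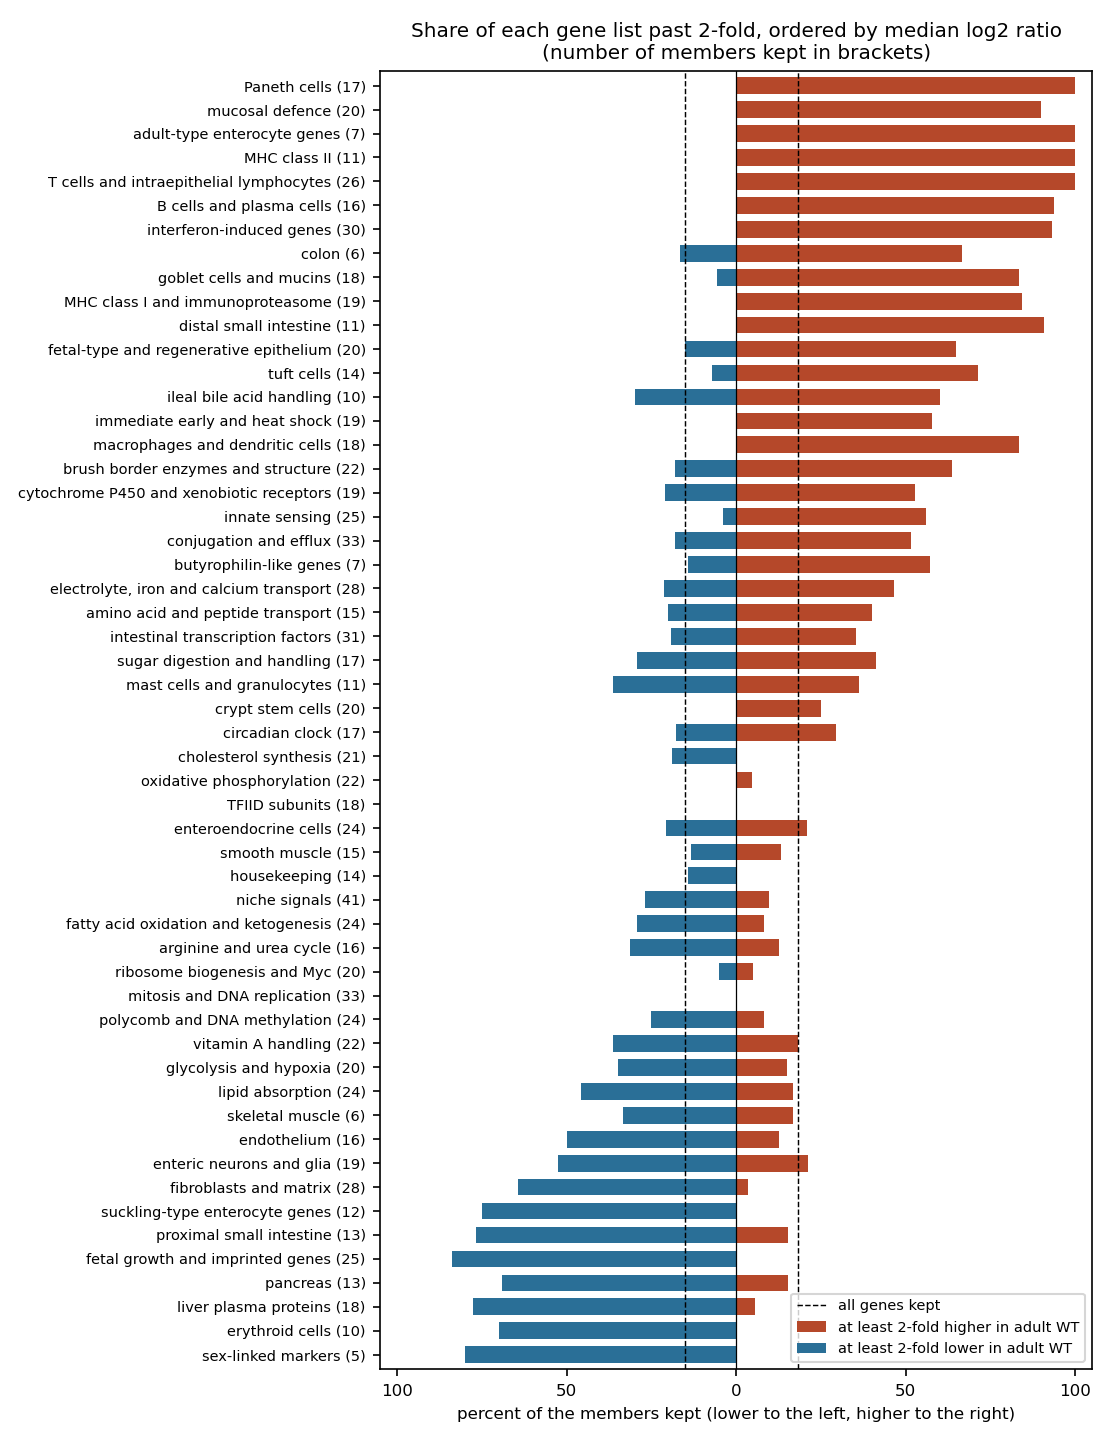
Share of each gene list past 2-fold between the means, higher in adult WT to the right and lower to the left, ordered by the median log2 ratio, with dashed lines at the shares over all genes kept (18.3% higher and 15.2% lower). Paneth cells, adult-type enterocyte genes, MHC class II and T cells reach 100% to the right, and erythroid, liver and imprinted growth genes lie mostly to the left.

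Crypt stem cell genes were present at both stages. Lgr5, the receptor that marks stem cells of the crypt base, rose, with 320.0, 309 and 292 counts per kb in the adult libraries and 97.2, 108 and 86.5 in the embryo libraries (log2 fold change 1.66 ± 0.10, adjusted p = 2.3e-06). Olfm4, another marker of these cells, had 5683, 6143 and 6147 in the adult libraries and 685, 630.2 and 529 in the embryo libraries and also rose (log2 fold change 3.29 ± 0.09, adjusted p = 1.0e-07). Neither gene's groups overlapped. The Wnt target Axin2 (log2 fold change 2.54 ± 0.08, adjusted p = 1.7e-07), Prom1 (log2 fold change 2.86 ± 0.22, adjusted p = 1.2e-05) and Cd44 (log2 fold change 1.55 ± 0.08, adjusted p = 1.1e-06) rose too, so that 5 of 20 genes tested rose and 0 fell, and the median log2 ratio of the list was 0.49, or 0.15 at equal totals. Genes known as markers of fetal-type or regenerating epithelium did not follow their name: 13 of 20 were past 2-fold higher and 3 lower. Among those that rose were Il1rn, an interleukin antagonist (log2 fold change 5.25 ± 0.74, adjusted p = 3.7e-04), Ly6d (log2 fold change 4.75 ± 0.57, adjusted p = 1.4e-04), Spp1, osteopontin of macrophages and other cells (log2 fold change 4.27 ± 1.15, adjusted p = 0.012), and Clu, clusterin (log2 fold change 3.10 ± 0.16, adjusted p = 1.3e-06). Trim71, an RNA-binding protein of early development, fell, with 0 counts per kb in all adult libraries and 74.8, 72.0 and 72.0 in the embryo libraries (adjusted p = 1.7e-06). Ly6a, known as Sca-1, had means of 1719 in adult WT and 39.1 in embryo WT. In whole tissue the immune and stromal cells that also carry Spp1, Ly6a and Il1rn were counted with the epithelium, and their part in these values was not tested.

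Genes of cell division differed by less than 2-fold. None of the 33 tested was past 2-fold at an adjusted p under 0.05, nor at an unadjusted p under 0.05 (limma), while 2 fell without adult library c and 1 without any 1 of the embryo libraries. Without the 2-fold minimum, 24 were lower and 1 higher at an adjusted p under 0.05, and the median log2 ratio of the list was -0.34. Mki67, the marker of cycling cells, had 589, 698 and 681 counts per kb in the adult libraries and 848, 798 and 723 in the embryo libraries (log2 fold change -0.27 ± 0.08, adjusted p = 0.021), a difference with an adjusted p of 0.050 without adult library a, 0.081 without embryo library a and 0.064 without embryo library b. The licensing factor Mcm2 had means of 262 in adult WT and 471 in embryo WT and the reductase Rrm2 590.4 in adult WT and 1169 in embryo WT. Ribosome biogenesis genes gave a median of -0.32. Within that list the Myc paralogues parted: Mycn fell (log2 fold change -3.33 ± 0.14, adjusted p = 5.5e-07), Mycl1 rose (log2 fold change 1.46 ± 0.12, adjusted p = 1.5e-05), and Myc itself had 405, 369.5 and 354 in the adult libraries and 420.0, 354 and 333 in the embryo libraries and did not pass. Oxidative phosphorylation had a median log2 ratio of 0.05 (-0.28 at equal totals) with 1 gene rising (2 without adult library c) and 0 falling. Glycolysis and hypoxia genes fell in 7 and rose in 3 of 20 cases, with the glucose transporter Slc2a1 (log2 fold change -2.19 ± 0.09, adjusted p = 3.2e-07) and Bnip3 (log2 fold change -2.11 ± 0.15, adjusted p = 7.6e-06) among those that fell and the hexokinase Hk2 (log2 fold change 2.81 ± 0.18, adjusted p = 4.0e-06) among those that rose.

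Genes of fetal growth were low in adult WT. Of 25 imprinted and growth genes 21 were past 2-fold lower and 0 higher, with a median log2 ratio of -3.08, and 18 of 22 tested fell. H19, an imprinted non-coding RNA, had means of 133 counts per kb in adult WT, with libraries at 167, 137 and 94.7, and 258434 in embryo WT, the largest decrease in level of all genes kept. Its neighbour Igf2, the fetal growth factor, had means of 74.9 in adult WT and 28611 in embryo WT, and Igf2as, annotated on the opposite strand, fell (log2 fold change -10.50 ± 0.60, adjusted p = 2.2e-06). Dlk1 of another imprinted domain had 6.05, 5.49 and 4.63 counts per kb in the adult libraries and 2786, 3495 and 2717 in the embryo libraries (log2 fold change -8.999 ± 0.53, adjusted p = 2.6e-06). The growth inhibitor Cdkn1c (log2 fold change -7.45 ± 0.19, adjusted p = 8.3e-08), Mest (log2 fold change -6.35 ± 0.17, adjusted p = 1.0e-07), Plagl1 (log2 fold change -4.73 ± 0.11, adjusted p = 6.3e-08) and Grb10 (log2 fold change -4.31 ± 0.07, adjusted p = 2.0e-08) fell too. Igf2bp1, which binds Igf2 messenger RNA, had 0, 10.3 and 3.47 in the adult libraries and 1862, 1958 and 2012 in the embryo libraries (log2 fold change -9.18 ± 0.69, adjusted p = 9.5e-06), and its relative Igf2bp3 fell likewise (log2 fold change -6.88 ± 0.22, adjusted p = 1.5e-07). Lin28b, a partner of these proteins in fetal tissues, had a mean of 0.0903 in adult WT and 4.31 in embryo WT, below the minimum. The growth hormone receptor Ghr (log2 fold change -1.99 ± 0.08, adjusted p = 3.0e-07) and Igf1 (log2 fold change -1.70 ± 0.14, adjusted p = 1.8e-05) fell as well.

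Among transcription factors of the gut, 11 rose and 5 fell of 29 tested. Hnf4a, a main regulator of enterocyte genes, rose (log2 fold change 1.29 ± 0.04, adjusted p = 1.5e-07), and so did Klf4 (log2 fold change 3.04 ± 0.10, adjusted p = 1.5e-07) and the forkhead factors Foxa3 (log2 fold change 1.91 ± 0.23, adjusted p = 1.6e-04) and Foxa2 (log2 fold change 1.80 ± 0.26, adjusted p = 4.5e-04). Cdx2, the factor of intestinal identity, had means of 2258 in adult WT and 1809 in embryo WT, a difference under 2-fold. Creb3l3, a regulator of lipid genes, fell (log2 fold change -2.54 ± 0.09, adjusted p = 2.0e-07). Of the Sox family 9 of 13 were past 2-fold lower and 0 higher. Polycomb and DNA methylation genes fell in 6 of 23 cases tested. Ezh2, the methyltransferase of PRC2, had 559, 609 and 562 counts per kb in the adult libraries and 642, 600.0 and 574 in the embryo libraries (log2 fold change -0.07 ± 0.07, adjusted p = 0.41), and its paralogue Ezh1 had 2239, 2114 and 1931 in the adult libraries and 1143, 1169 and 1162 in the embryo libraries (log2 fold change 0.85 ± 0.07, adjusted p = 1.5e-05), a difference under 2-fold. The methyltransferase Dnmt3a (log2 fold change -1.53 ± 0.06, adjusted p = 3.0e-07) and the demethylase Tet1 (log2 fold change -2.32 ± 0.23, adjusted p = 5.2e-05) fell, together with Rbbp7, Cbx2, Phf19 and Dnmt3b. Jarid2, a cofactor of PRC2, was the member that rose, just past 2-fold (log2 fold change 1.01 ± 0.06, adjusted p = 2.7e-06), and none of the list rose without adult library a or c or without embryo library a or c. None of 18 subunits of TFIID, the complex that binds the TATA box and contains TAF4, was past 2-fold at an adjusted p under 0.05, nor at an unadjusted p under 0.05 (limma). Without the 2-fold minimum 4 were higher and 4 lower at an adjusted p under 0.05. Taf4a had means of 373 in adult WT and 226 in embryo WT (log2 fold change 0.73 ± 0.09, adjusted p = 1.4e-04).

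Signalling genes of the crypt and villus niche, epithelial and stromal together, moved both ways, 11 of 41 falling and 4 rising. Targets and effectors of hedgehog signalling, by which the epithelium instructs the mesenchyme, fell: Ptch1 (log2 fold change -1.55 ± 0.15, adjusted p = 4.8e-05), Gli1 (log2 fold change -1.84 ± 0.15, adjusted p = 1.3e-05), Gli2 (log2 fold change -1.93 ± 0.14, adjusted p = 7.7e-06) and Gli3 (log2 fold change -1.99 ± 0.12, adjusted p = 2.4e-06). The ligand Ihh had 763, 539 and 555 counts per kb in the adult libraries and 653, 633 and 648 in the embryo libraries and did not pass. The ligand Shh, near the minimum with means of 0.857 in adult WT and 11.3 in embryo WT, fell (log2 fold change -3.43 ± 0.51, adjusted p = 5.0e-04). Wnt3, a Wnt ligand that Paneth cells make, rose (log2 fold change 3.35 ± 0.54, adjusted p = 8.2e-04), as did the BMP antagonist Grem1 of the crypt base (log2 fold change 1.82 ± 0.12, adjusted p = 5.1e-06), whereas Bmp7 (log2 fold change -2.999 ± 0.11, adjusted p = 2.6e-07), Sfrp2 (log2 fold change -2.99 ± 0.29, adjusted p = 3.7e-05) and the mesenchymal factor Foxl1 (log2 fold change -2.18 ± 0.26, adjusted p = 1.3e-04) fell.

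Lymphocyte genes were high in adult WT. All 26 T cell and intraepithelial lymphocyte genes rose, with a median log2 ratio of 4.40. Cd3e, a chain of the T cell receptor complex, had 184, 309.7 and 277 counts per kb in the adult libraries and 4.38, 2.04 and 3.61 in the embryo libraries (log2 fold change 6.14 ± 0.68, adjusted p = 8.8e-05). The chemokine Ccl5 (log2 fold change 8.17 ± 1.03, adjusted p = 1.9e-04), the granzymes Gzma (log2 fold change 5.59 ± 0.75, adjusted p = 2.6e-04) and Gzmb (log2 fold change 6.60 ± 2.15, adjusted p = 0.026) and Cd8a (log2 fold change 7.29 ± 0.83, adjusted p = 1.0e-04) rose with it. The summed means of these genes were 9053 counts per kb in adult WT and 305 in embryo WT. B and plasma cell genes rose in 14 of 15 cases. Igj, the joining chain of secreted antibodies, had means of 25764 in adult WT and 3.62 in embryo WT, and Tnfrsf17, a receptor of plasma cells, had 97.2, 88.5 and 66.1 in the adult libraries and 0 in all embryo libraries (adjusted p = 2.8e-05). Gene segments of antibodies and T cell receptors, 276 of which were kept, were past 2-fold higher in 270 cases and lower in 1, and 149 of 260 tested rose. The 229 antibody segments of the mouse tissue table had summed means of 622297 counts per kb in adult WT and 220 in embryo WT. Most of the 198 antibody segments kept thus passed the minimum only through adult WT, which largely fixes their share past 2-fold. Of 26 T cell genes 1 and of 17 B cell genes 1 reached a mean of 10 in control ileal organoids, which are cultures of epithelium alone and were normalized in a separate table. Ptprc, the common leukocyte antigen, rose as well (log2 fold change 2.68 ± 0.10, adjusted p = 2.6e-07).

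Antigen presentation and interferon-induced genes rose alongside. All 11 class II genes were past 2-fold higher and the 10 tested rose. H2-Aa had 20154, 17226 and 26109 counts per kb in the adult libraries and 369.9, 453 and 352 in the embryo libraries (log2 fold change 5.74 ± 0.21, adjusted p = 2.3e-07), and Ciita, the activator of class II genes, rose with it (log2 fold change 4.53 ± 0.48, adjusted p = 6.9e-05). Only 2 of the 11 class II genes reached a mean of 10 in the control organoids. Class I and immunoproteasome genes were past 2-fold higher in 16 of 19 cases, among them H2-Q6 (log2 fold change 5.49 ± 0.21, adjusted p = 3.1e-07) and Psmb8 (log2 fold change 3.77 ± 0.38, adjusted p = 4.8e-05). Interferon-induced genes were past 2-fold higher in 28 of 30, and 14 of 19 tested rose, against 17 without adult library a and 11 without embryo library a or c. Ido1, which degrades tryptophan, had 481, 494 and 1241 counts per kb in the adult libraries and 0.559, 0 and 0.645 in the embryo libraries (log2 fold change 10.05 ± 2.58, adjusted p = 0.0092). Ubd had 34.8, 462 and 2216 in the adult libraries, against 0, 1.05 and 0 in the embryo libraries, and did not pass (adjusted p = 0.34). Sensors of microbes rose in 13 of 24 cases, among them the Toll-like receptors Tlr3 (log2 fold change 4.57 ± 0.23, adjusted p = 1.2e-06) and Tlr1 (log2 fold change 3.60 ± 0.21, adjusted p = 2.3e-06). Tlr5, the receptor for flagellin, was the one that fell, with 33.1, 24.4 and 26.2 in the adult libraries and 259, 245 and 247 in the embryo libraries (log2 fold change -3.16 ± 0.13, adjusted p = 3.9e-07). Of the butyrophilin-like genes, a family known to maintain intraepithelial T cells, Btnl7 (log2 fold change 2.22 ± 0.15, adjusted p = 4.8e-06) and Btnl5 (log2 fold change 1.86 ± 0.06, adjusted p = 1.8e-07) rose and Btnl9 fell (log2 fold change -2.39 ± 0.35, adjusted p = 4.5e-04).

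Macrophage and dendritic cell genes rose in 15 of 18 cases, led by Lyz2, the macrophage lysozyme (log2 fold change 3.96 ± 0.17, adjusted p = 4.6e-07), and Itgam (log2 fold change 3.17 ± 0.14, adjusted p = 5.6e-07). Csf1r, their growth factor receptor, had 642, 538 and 512 counts per kb in the adult libraries and 755, 909 and 809 in the embryo libraries, a difference under 2-fold towards the embryo. Mast cell and granulocyte genes were split, with 4 rising and 3 falling; 2 rose without adult library a or without embryo library c.

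Genes of connective tissue, vessels and enteric neurons were lower in adult WT in many cases. Fibroblast and matrix genes fell in 16 of 25 cases tested, and of 37 collagen chains kept 30 were past 2-fold lower and 0 higher. Col1a1, the main collagen of connective tissue, had means of 14093 counts per kb in adult WT, with libraries at 16664, 13295 and 12321, and 75373 in embryo WT. The fetal fibrillin Fbn2 had 6.71, 7.68 and 6.17 in the adult libraries and 499, 500.3 and 414 in the embryo libraries (log2 fold change -6.09 ± 0.19, adjusted p = 1.5e-07), and the collagen cross-linking enzyme Lox fell (log2 fold change -3.13 ± 0.17, adjusted p = 1.6e-06). Dcn, decorin, was the member that rose (log2 fold change 1.07 ± 0.09, adjusted p = 1.4e-05), a call lost without embryo library c. Endothelial genes fell in 8 and rose in 2 of 15 cases, with Cdh5 among those that fell (log2 fold change -2.27 ± 0.10, adjusted p = 6.3e-07). Genes of enteric neurons and glia fell in 9 and rose in 4 of 18 cases. The neural crest genes Ret (log2 fold change -2.31 ± 0.08, adjusted p = 1.7e-07) and Sox10 (log2 fold change -2.27 ± 0.23, adjusted p = 5.2e-05) fell, while the neuropeptides Vip (log2 fold change 1.31 ± 0.16, adjusted p = 1.7e-04) and Gal (log2 fold change 1.29 ± 0.16, adjusted p = 2.0e-04) rose. Smooth muscle genes were nearly balanced, with a median log2 ratio of 0.05 (-0.29 at equal totals). Actg2 of visceral muscle fell (log2 fold change -1.55 ± 0.05, adjusted p = 1.1e-07), and Myh11 had 4161, 4153 and 4211 in the adult libraries and 3850.0, 3935 and 3879.6 in the embryo libraries, a difference under 2-fold.

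Red cell and liver genes were mostly low in adult WT, while pancreas genes went both ways. Red cell genes fell in 7 of 10 cases, with the globin Hba-a1 at means of 108 in adult WT and 3517 in embryo WT (log2 fold change -5.01 ± 0.21, adjusted p = 4.7e-07). The paired globin genes are near-identical, and reads can be split between them. Alb, albumin, had means of 0.391 in adult WT and 608 in embryo WT. Afp, the fetal plasma protein alpha-fetoprotein, was high in every embryo library, and fell, with 7.49, 3.97 and 2.87 counts per kb in the adult libraries and 5809, 9604 and 7321 in the embryo libraries (log2 fold change -10.61 ± 0.94, adjusted p = 2.5e-05). Of 18 plasma protein genes of the liver 14 were past 2-fold lower and 9 of 17 tested fell (10 without embryo library b). Hp, haptoglobin, rose (log2 fold change 6.05 ± 1.04, adjusted p = 0.0011). Ahsg and Fgg, high in embryo library b alone, did not pass. Serpina1a and Fga were high in all embryo libraries, Serpina1a at 208, 253 and 206 and Fga at 195, 454 and 265 counts per kb, and both fell (adjusted p = 2.2e-05 for Serpina1a and 0.0024 for Fga). Pancreas genes were past 2-fold lower by their means in 9 of 13 cases but fell in 0 of 13 tested with limma (1 at an unadjusted p under 0.05), and in 2 without embryo library a. The 2 pancreas genes that rose were Clps, the colipase (log2 fold change 3.83 ± 0.61, adjusted p = 6.9e-04), and Ctrl, a chymotrypsin-like protease (log2 fold change 1.21 ± 0.29, adjusted p = 0.0064). Clps had means of 2383 in adult WT and 218 in embryo WT, and the summed means of the list were 2569 counts per kb in adult WT and 1011 in embryo WT.

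Genes listed almost only at 1 stage were counted as those with a mean of at most 1 in one group and at least 100 in the other. In adult WT there were 178 of them, of which 153 were antibody or T cell receptor segments, 6 had predicted names and 19 were other genes. These included defensin genes, Pla2g2a, Ocm, the chemokine Ccl8 and the tyrosine aminotransferase Tat. Slc28a3, a nucleoside transporter, had 339, 469.5 and 507 counts per kb in the adult libraries and 0, 0.563 and 0 in the embryo libraries (adjusted p = 1.1e-04). The magnesium channel Trpm6 had 161, 145 and 126 in the adult libraries and 1.11, 0.3 and 0.797 in the embryo libraries (adjusted p = 6.0e-06). In embryo WT there were 21, none of them a segment. Prodh2, which breaks down hydroxyproline, had 1.44, 0 and 0 counts per kb in the adult libraries and 624, 658 and 1481 in the embryo libraries (adjusted p = 0.0078). Hyal5, a hyaluronidase, had 0 counts per kb in all adult libraries and 652, 903 and 970.0 in the embryo libraries (adjusted p = 1.3e-04), and the receptor tyrosine kinase Ros1 had means of 0.536 in adult WT and 681 in embryo WT. The list also held Abcb11, Aqp8, Cldn19 and Acot3, beside plasma protein genes and the Y-linked Eif2s3y, which embryo library a alone carried.

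Epithelium grown from ileal crypts gives a view of which genes can come from epithelial cells. Of the 3173 higher genes 2660 were in the organoid table, and 1618 of these (60.8%) reached a mean of 10 in control organoids. Among lower genes 1158 of 2331 did (49.7%), and among genes within 2-fold 9978 of 11385 (87.6%). The shares differed between lists: 22 of 24 brush border genes and 14 of 18 Paneth cell genes found in the mouse tissue table reached that mean. In these list counts a gene absent from the organoid table was taken as not reaching it, unlike in the shares above. Fibroblast and matrix genes did in 2 of 28 cases. Other epithelial lists lay between, with 6 of 16 tuft cell, 15 of 26 enteroendocrine and 12 of 23 vitamin A genes, as did imprinted and growth genes with 14 of 27. A gene below that mean in organoids can thus still be epithelial.

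The groups labelled KO gave the same contrast in other animals of the 2 stages. Taf4a, the targeted gene, had means of 494 counts per kb in adults labelled KO and 373 in adult WT, and 299.5 in embryos labelled KO and 226 in embryo WT, so the whole-gene count does not show the deletion. Of the 3173 genes past 2-fold higher in WT, 2549 (80.3%) were past 2-fold higher between the KO groups too, and 34 were past 2-fold lower. Of the 2635 lower genes 1925 (73.1%) were past 2-fold lower and 63 higher. The change with stage differed between WT and KO for 455 of 2974 higher and 704 of 2533 lower genes tested. This was limma's test of the difference, at an adjusted p under 0.05. These genes were chosen by their WT ratio, which is part of the difference, and no share over all genes stands beside the counts. They are therefore not read as a result about higher or lower genes. Medians of several lists lay apart. Sugar digestion and handling had 2.25 between the KO groups and 0.62 between the WT groups, and liver plasma proteins -1.34 and -4.25 in that order. Some liver genes were high in embryo WT library b alone, such as Ahsg at 675 counts per kb, against 2.85 to 3.46 in embryos labelled KO. Fga had 195 to 454 in the embryo WT libraries and 184 to 285 in embryos labelled KO. How far library b moved the liver median was not tested.

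**Figure D5:**
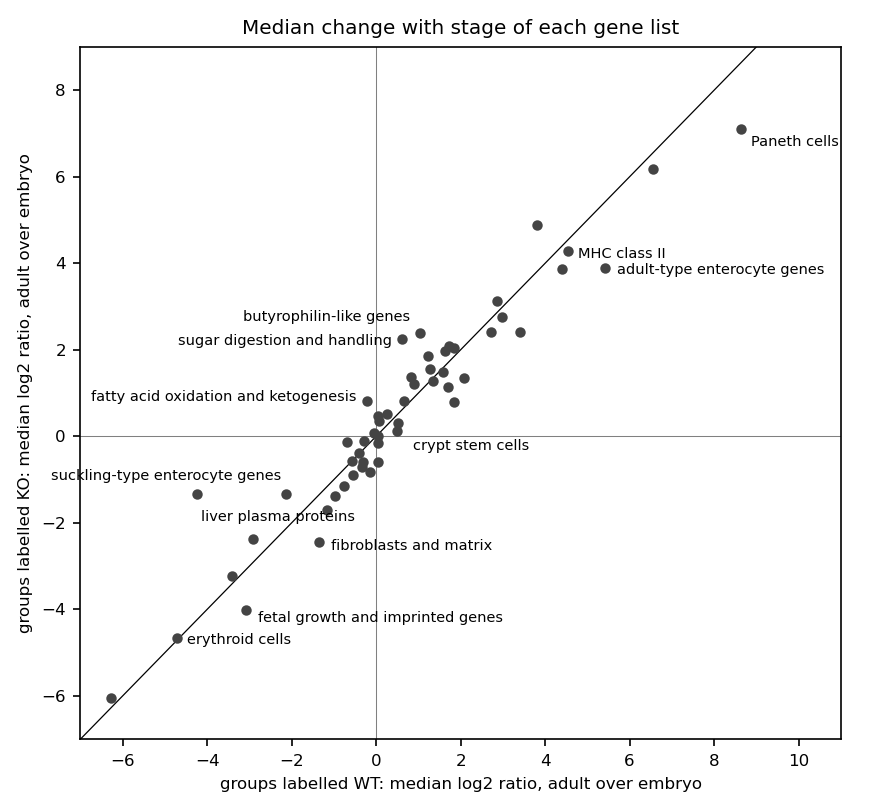
Median log2 ratio, adult over embryo, of each gene list with at least 5 genes kept, between the groups labelled WT (horizontal) and the groups labelled KO (vertical), with a line of equality. Most lists lie near the line, Paneth cells at 7.09 in KO and 8.63 in WT. Liver plasma proteins, some of them high in embryo WT library b alone, lie well above it.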

How the data were processed

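Per the labels, polyA RNA of 3 samples per group was sequenced. Per the methods, adapters were cut with cutadapt 1.10, ribosomal sequence was taken out using Bowtie2 2.2.8, mapping to mm9 used STAR 2.5.3a, and HTSeq and DESeq2 served the authors for gene counts and size factors. The deposited signal is 1 mean per gene and group, with reads divided by size factor and, as found from the values, by the median transcript length in kb. The table's other columns hold the authors' log2 fold changes and adjusted p-values of KO against WT and were not used. No per-sample column was left unused (0).

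Genes with a mean of at least 10 in either group were compared by log2((adult + 1)/(embryo + 1)), with a pseudocount of 1, which understates the change of low genes. A 2-fold threshold was applied. Whole reads per library were then solved from the means and fitted with limma 3.58.1 (voom, R 4.3.3) on both WT groups alone, or on all 4 tissue groups where the change with stage was compared between genotypes. This was an alternative added after the data were seen because the means alone allow no test. For large values, reads were sought only where each library lay within 0.5 to 1.5 times the mean, and 581 of the genes kept, in which no single solution was found, had no test. Recovery and fit were tested on simulated data. The test planned for counts was replaced by these steps.

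Genes were named by rule: the 15 per direction with the largest ratio among genes with a mean of at least 200, the 10 per direction with the largest difference in mean (antibody and T cell receptor segments, small RNA genes and predicted names left out), up to 6 members per list in the direction of its median and 3 against it, and a set of marker genes. Further genes were named for their role after their values were seen, and some genes that the rule names are not reported here. The genes compared and all lists were chosen with earlier results of these data known. Promoters came from RefSeq. Alternatives covered pseudocount, minimum, threshold, scaling, gene classes, the groups labelled KO and each library left out.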

Additional observations from a re-analysis of the deposited data

Results flagged for a closer look

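Genes named for their ratio, for their difference in mean or as markers were screened here. For 6 of them the change with stage differed between KO and WT in limma's test of the difference itself (n = 3 libraries per group). Members named only through their list were not screened, and no share over all genes stands beside this count. Differences are given as the log2 change in KO minus that in WT, with their SE. Genes named for a large WT ratio or difference were chosen on values that enter this test.

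Fabp1 was lower in adults than embryos at both genotypes, but by less in KO (2.60 ± 0.69, adjusted p = 0.02): its means were 108 counts per kb in adults labelled KO and 12352 in embryos labelled KO, and 103 in adult WT and 56479 in embryo WT. Rbp2 did likewise (2.45 ± 0.34, adjusted p = 4.4e-04), with 475 in adults and 1424 in embryos labelled KO. Ass1 differed by less (0.91 ± 0.26, adjusted p = 0.026), with 395 in adults and 10417 in embryos labelled KO. Hyal5 had means of 0 in adults and 28.7 in embryos labelled KO, and 0 in adult WT and 842 in embryo WT (4.68 ± 1.31, adjusted p = 0.026), where the fitted value rests on adult libraries at 0 and is no bound.

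Olfm4, the crypt marker, rose further in KO (2.67 ± 0.30, adjusted p = 1.1e-04), with means of 1799 in adults and 28.5 in embryos labelled KO against 5991 in adult WT and 615 in embryo WT. Prdm1 fell further in KO (-1.61 ± 0.32, adjusted p = 0.004), with 51.5 in adults and 584 in embryos labelled KO against 203 in adult WT and 728 in embryo WT. In 5 of these 6 genes the embryos labelled KO differed from embryo WT by more than the adults did; the cause was not tested.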

How the results depend on the processing

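The share of higher genes among those past 2-fold was 54.6%. Lower genes became the majority with the groups scaled to equal totals (40.7%), to equal totals without the 100 highest genes (46.7%) or without the genes of 4 cell type lists (40.2%, chosen after the data were seen). It was 56.9% with a pseudocount of 10, 57.7% with a minimum mean of 50 (1639 lower genes), 51.0% without a minimum (4336 lower genes), 61.5% at 4-fold (1651 higher, 1035 lower), 52.8% for protein-coding genes and 52.7% between the groups labelled KO. Over the lists 375 genes were higher and 233 lower, and 137 were lower at 4-fold. The share of higher genes on the same side in KO, 80.3%, was 76.1% with a pseudocount of 10, 84.7% with a minimum of 50 and 77.0% at 4-fold, and that of lower genes, 73.1%, was 69.0%, 77.5% and 66.0%. The share of higher genes present in organoids, 60.8%, was 73.8% with a minimum of 50 and 50.3% at 4-fold, and that of lower genes, 49.7%, was 62.0% and 42.4%. With each library left out, 2486 to 2716 genes rose and 2172 to 2268 fell. A mean-variance trend in place of weights gave 2740 and 2280. Of 28 single genes refitted without each library, only Mki67 crossed the 0.05 threshold, without adult library a or embryo library a or b. No paired analysis was possible because the deposited columns are group means and the recovered libraries carry no replicate numbers.

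Stage, region and the amount of each cell type cannot be told apart in these tissues. Genes without a single whole-read solution have no test, among them 11 of 30 interferon-induced genes. Depth limits genes near 10 counts per kb.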

Other observations

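Some genes of the circadian clock and some stress-induced genes also differed. Of 15 clock genes tested 4 rose and 3 fell, and 5 fell without adult library a. The activators Arntl (436, 551 and 539 counts per kb in the adult libraries and 90.7, 95.6 and 71.4 in the embryo libraries, log2 fold change 2.56 ± 0.14, adjusted p = 1.9e-06) and Npas2 (log2 fold change 2.65 ± 0.08, adjusted p = 1.1e-07) rose. Their repressors Per1 (146, 126 and 107 in the adult libraries and 433, 435 and 458 in the embryo libraries, log2 fold change -1.81 ± 0.10, adjusted p = 2.0e-06) and Per2 (log2 fold change -1.64 ± 0.28, adjusted p = 0.0011) fell. The adult libraries differed among themselves in Nr1d2 (623, 299.9 and 162) and Dbp (155, 67.4 and 23.6), while the embryo libraries held 100.1, 98.9 and 95.7 for Nr1d2 and 111, 94.3 and 155 for Dbp.

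Immediate early and heat shock genes rose in 10 of 18 cases tested. Fos had 3541, 2119.9 and 2765 counts per kb in the adult libraries and 345, 406 and 344 in the embryo libraries (log2 fold change 2.92 ± 0.21, adjusted p = 7.6e-06), and Atf3, a stress-induced factor, had 506, 572 and 634 in the adult libraries and 81.2, 70.4 and 58.1 in the embryo libraries (log2 fold change 3.02 ± 0.16, adjusted p = 1.7e-06). Egr1 had means of 244 in adult WT and 71.1 in embryo WT. Of genes often used as a reference in such comparisons, Gusb fell (log2 fold change -2.37 ± 0.07, adjusted p = 1.4e-07) and Tubb5 fell (log2 fold change -1.09 ± 0.07, adjusted p = 3.0e-06). Rplp0 (23256, 25441 and 24335 in the adult libraries and 24689, 24514 and 25661 in the embryo libraries), Tbp and Hprt did not pass (adjusted p = 0.54, 0.42 and 0.51). At equal totals these log2 values would be lower by up to 0.34.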
